A study of Mus musculus with 8 samples.

Results

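The chemokines and their receptors of mouse tumour macrophages were followed as a family of 46 listed genes, 33 ligands and 13 receptors. A probe was assigned to a member where the RefSeq table gave the probe's transcript accession that gene symbol, and the probe with the highest mean signal over the 8 arrays stood for the gene. This found 58 probes for 45 of the 46 members. No accession was matched to Cxcl11, a Cxcr3 ligand that the RefSeq table lists as a transcribed pseudogene in C57BL/6J, and it has no value here. Cxcl15, a lung chemokine, had 2 probes, neither of them well above background on a single array. The remaining 44 members were among the 20870 genes tested, and 41 of them were well above background on all 8 arrays.

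The cells were F4/80 and CD45 double positive cells, that is, cells carrying a macrophage surface protein and the common leukocyte antigen, sorted from breast tumours about 21 days after PyMT breast cancer cells were implanted into the mammary tissue of C57BL/6 mice. PyMT cells carry the polyoma middle T oncogene. The hosts were wild type (WT) or ATF3 knockout (KO), ATF3 being a stress-induced transcription factor, and the same tumour cell type was implanted in both. The labels give 4 samples per genotype, numbered 1 to 4 in each, and do not say whether these came from separate mice, so that each p-value speaks for the spread among these 8 samples, which may be technical. The knockout is of the host, and the labels do not say how the gene was inactivated.

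Chemokines are small secreted proteins that direct the movement of leukocytes through G protein-coupled receptors. CC ligands mostly draw monocytes, T cells, eosinophils and dendritic cells, while many CXC ligands draw neutrophils through Cxcr2 or activated T cells through Cxcr3. In tumours, Ccl2 and its receptor Ccr2 are known for bringing in the monocytes that become macrophages, and macrophages are themselves a source of many ligands of both classes.

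The upstream sequence of 4 members is shown because it carries motifs known from inflammatory control of chemokine genes. In the 250 bases before the start of transcription, RefSeq sequence of build GRCm38.p6 was at hand for 35 members (37 promoters) and was searched on both strands for the CRE letters TGACGTCA bound by ATF and CREB factors, AP-1 (TGANTCA), NF-kB and an interferon response element. CRE was found in 0 of the 37 promoters and in 1.55% of all 32851 promoters, AP-1 in 10.8% against 6.75%, NF-kB in 10.8% against 0.356% and the interferon response element in 8.11% against 2.98%. A match describes letters and is not a binding site, and no match says only that these letters are not in this window. In 37 promoters, 0 with CRE cannot be told apart from a share of 1.55%. The 11 members not searched included Ccl2, Ccl4, Ccl5, Ccl7, Cxcl16 and Ccr7. The NF-kB letters stood in Cxcl1, Cxcl2 and Cxcl3, neighbours on chromosome 5 that encode neutrophil attractants, and in Ccr3. The last 120 bases before the start are given for the 3 ligands, and 250 bases for Cxcl10, a Cxcr3 ligand, 5′ to 3′ on the strand of the gene with the motif matches in capitals. The positions are chr5:90891125-90891244 (plus strand), chr5:90903779-90903898 (plus), chr5:90785981-90786100 (plus) and chr5:92348890-92349139 (minus). In Cxcl1, Cxcl2 and Cxcl3 the capitals mark the NF-kB match, and in Cxcl10 they mark the interferon response element and then AP-1.
Cxcl1: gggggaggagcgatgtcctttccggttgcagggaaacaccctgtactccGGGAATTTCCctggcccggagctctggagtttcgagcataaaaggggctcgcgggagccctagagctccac
Cxcl2: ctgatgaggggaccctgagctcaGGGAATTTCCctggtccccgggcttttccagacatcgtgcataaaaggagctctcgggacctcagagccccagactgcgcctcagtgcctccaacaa
Cxcl3: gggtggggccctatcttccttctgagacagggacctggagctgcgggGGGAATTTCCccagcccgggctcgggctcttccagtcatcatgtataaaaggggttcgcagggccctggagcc
Cxcl10: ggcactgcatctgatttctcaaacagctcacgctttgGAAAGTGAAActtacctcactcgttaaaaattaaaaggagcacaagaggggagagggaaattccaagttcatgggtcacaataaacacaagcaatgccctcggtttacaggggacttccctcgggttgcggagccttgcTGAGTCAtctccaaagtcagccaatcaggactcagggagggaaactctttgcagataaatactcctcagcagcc

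Each sample was hybridised to its own array, 1 colour, and 2 slides held 4 arrays each. Slide 1 carried numbers 1 and 2 of both genotypes, and slide 2 carried numbers 3 and 4. All levels below are log2 processed signal minus log2 of the array's 75th percentile, which was 619 to 927 intensity units, 20.5 to 32.0 times the local background, so a level of 0 equals that percentile. Levels of different probes are not compared. Per array, 63.7% to 68.0% of spots exceeded background by the scanner software's own test, and precision is limited by how few arrays there are. The level of Atf3 itself was 4.80 ± 0.21 under the WT label and 5.05 ± 0.31 under the KO label (SD, n = 4 each, two-sided exact permutation p = 0.286), and since no source used here places its probe against the deleted part, Atf3 cannot check the labels. WT and KO below therefore mean the samples so labelled. The sort marker genes were present, with Adgre1, which encodes F4/80, at 4.14 ± 0.60 and 4.07 ± 0.54 and the CD45 gene Ptprc at 4.51 ± 0.54 and 4.42 ± 0.55 (SD, n = 4 each). The 13 macrophage markers with a probe were all tested, 3 higher and 10 lower in KO, beside 48.85% of all genes with a higher mean. Their differences were small, from −0.17 to 0.19 with a median of −0.03. Their mean level was 4.33 ± 0.52 under the WT label and 4.29 ± 0.50 under the KO label (SD, n = 4 each).

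No chemokine gene was called between the genotypes. With limma, 0 of 44 members had an adjusted p under 0.05, as did 0% of all genes tested, and the adjusted p of each member was 0.9998. By direction, 27 members (61.4%) had a higher mean in the samples labelled KO and 17 a lower one, beside 48.85% of all genes with a higher mean. Differences ran from −0.84 for Ccl28 to 1.56 for Cxcr5 on the log2 scale, where Cxcr5 was well above background on only 1 WT array and gave −0.16 with normexp background correction. A gene was tested if well above background on at least 4 arrays. Cxcr5 and Cxcl5, each on 1 WT and 3 KO arrays, were tested only through the KO label. Their higher means and small p-values are therefore no support for a difference. With a filter of 8 arrays, 25 members were higher and 16 lower. The median difference was 0.10 beside −0.0071 over all genes. At an unadjusted p under 0.05 there was 1 of 44 members, Ccl28, lower in KO, which is 2.27% beside 3.32% of all genes (1.13% higher and 2.19% lower in KO). With the replicate number as a block there were 3, Cxcr5, Ccl28 and Xcl1, or 6.82% beside 7.54% of all genes (2.95% higher and 4.59% lower), and none passed (limma adjusted p = 0.638, 0.638 and 0.645). The WT and KO samples overlapped for all 44 members, whereas 2.1% of all genes tested had groups that did not, 0.776% with KO above and 1.32% with KO below. A difference over 0.5 either way was seen in 10 members, 22.7%, beside 18.3% of all genes. In 5 members, 11.4%, the difference had the same sign in 4 of 4 same-numbered pairs, beside 17.1% of all genes. The split of directions depends on single samples: without WT sample 4, 18 of 44 were higher, with a median of −0.11, and without KO sample 1 the median was −0.023.

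**Figure D1:**
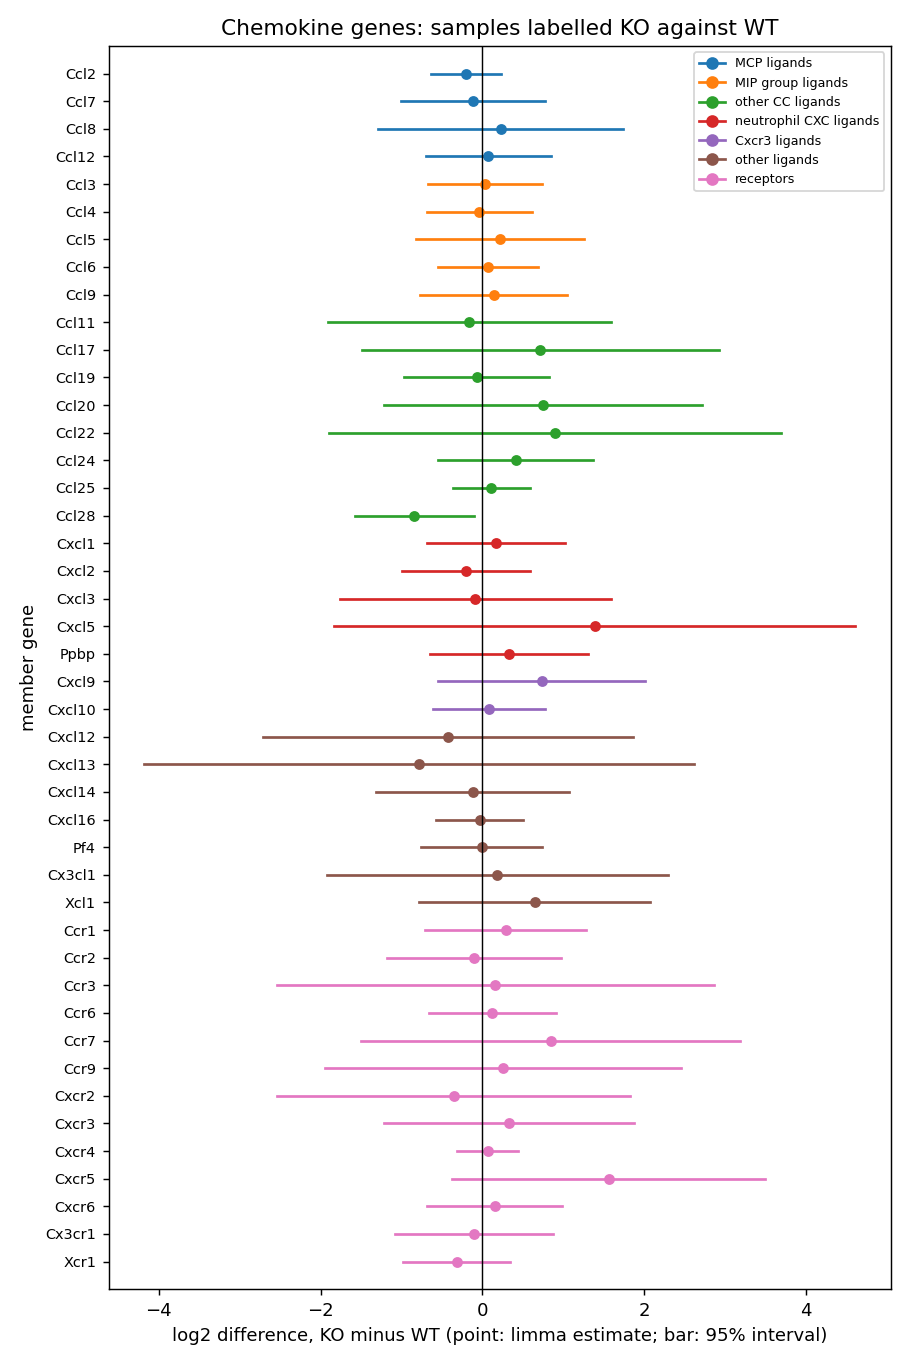
Log2 difference of each of the 44 members tested (x axis, KO minus WT, log2 units), with points for limma's estimate from 4 samples per genotype and bars for its 95% interval without a replicate block, in the colours of the role groups. All bars but that of Ccl28 (−1.58 to −0.11) cross 0, and the bars differ widely in length, from Cxcr4 (−0.31 to 0.44) to Cxcl13 (−4.18 to 2.62).

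Without a block for the replicate number, the distance from a member's estimate to the end of its 95% interval had a median of 0.99, against 0.75 over all genes. For 15 of the 44 members the interval excluded a 2-fold change either way (34.1%, beside 51.3% of all genes). These included Ccl2 (−0.64 to 0.23), Ccl4 (−0.69 to 0.61), Ccl6 (−0.54 to 0.69) and Cxcl16 (−0.57 to 0.51), and the receptor gene Cxcr4 (−0.31 to 0.44). The widest intervals were those of Cxcl13 (−4.18 to 2.62), Cxcl5 (−1.83 to 4.60) and Ccl22 (−1.89 to 3.69). Once same-numbered samples were treated as pairs in the fit (the replicate block), the median distance was 0.59 for the members and 0.52 for all genes, and the interval excluded such a change for 28 of 44 members (63.6%, beside 65.0% of all genes). Among those added were Ccr2, with −1.17 to 0.97 without the block and −0.41 to 0.20 with it, and Ccl8, with −1.29 to 1.74 and −0.35 to 0.81. Cxcl5, Cxcl13 and Ccl17 had the widest intervals with the block. The labels state no pairing, and the numbers were taken as pairs because same-numbered samples deviated together in these same data. For number 2 that correlation (0.137) was no higher than that of WT 2 with KO 4 (0.151). The narrower intervals hold only if the pairing does.

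The monocyte chemoattractant proteins Ccl2, Ccl7, Ccl8 and Ccl12 had 2 members higher and 2 lower in KO, with a median difference of −0.024, and none passed. Ccl2, the main ligand of Ccr2, measured 4.82, 4.87, 4.93 and 4.41 across WT 1 to 4, and 4.69, 4.47, 4.73 and 4.33 across KO 1 to 4. The KO sample was the lower one in each of the 4 same-numbered pairs, with differences from −0.39 to −0.08, and the groups overlapped. The group means were 4.76 ± 0.24 and 4.56 ± 0.19 (SD, n = 4 each), a difference of −0.20 with a standard error of 0.19. Ccl8, which attracts monocytes and T cells, measured 3.90, 3.64, 5.71 and 3.07 across WT 1 to 4, and 3.67, 4.41, 5.58 and 3.58 across KO 1 to 4, a difference of 0.23 ± 0.66 (SE). Both samples numbered 3 stood highest and WT sample 4 lowest, so the difference was 0.77 without WT sample 3 and −0.20 without KO sample 3. Ccl7, another monocyte attractant, measured 3.42, 3.63, 4.36 and 2.84 across WT 1 to 4, and 3.26, 3.15, 4.25 and 3.12 across KO 1 to 4, a difference of −0.12, and its second probe gave −0.12. Ccl12, which binds Ccr2 in the mouse, measured 5.30 in both samples numbered 3 and 4.03 to 4.66 in the other 6.

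The group that takes in the macrophage inflammatory proteins, Ccl3, Ccl4, Ccl5, Ccl6 and Ccl9, had 4 members higher and 1 lower in KO, a median difference of 0.07, and none passed. Ccl5, which T cells and NK cells also make, measured 3.20, 3.74, 2.20 and 1.97 across WT 1 to 4, and 3.72, 2.98, 2.69 and 2.59 across KO 1 to 4. The samples numbered 1 and 2, all on slide 1, lay above those numbered 3 and 4 in both genotypes. The difference was 0.22 ± 0.45 (SE), with −0.12 within slide 1 and 0.56 within slide 2. Ccl9 measured 5.06, 5.26, 5.62 and 3.98 across WT 1 to 4, and 5.32, 5.26, 5.45 and 4.44 across KO 1 to 4, a difference of 0.14, or −0.20 without WT sample 4, the lowest of the 8. Ccl6, a myeloid ligand of Ccr1, measured 6.56, 6.54, 6.77 and 5.85 across WT 1 to 4, and 6.80, 6.41, 6.75 and 6.05 across KO 1 to 4, with a difference of 0.07, or −0.12 without WT sample 4. The ranges of Ccl3 and Ccl4 over the 8 samples were 4.04 to 5.27 and 7.09 to 8.06.

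Among the other 8 CC ligands, which serve eosinophils, dendritic cells and lymphocytes of mucosa and lymph node, 5 were higher and 3 lower in KO, with a median difference of 0.26. Ccl28, a mucosal and epithelial ligand of Ccr3 and Ccr10, measured −2.99, −3.83, −2.46 and −3.56 across WT 1 to 4, and −4.08, −4.39, −3.92 and −3.82 across KO 1 to 4. Of the samples labelled KO, 3 lay below all samples labelled WT, and KO sample 4 lay just above WT sample 2, so the groups overlapped. The means were −3.21 ± 0.61 and −4.05 ± 0.25 (SD, n = 4 each), a 0.558-fold level in KO and a difference of −0.84 with a standard error of 0.32 (two-sided exact permutation p = 0.0571, where 0.0286 is the smallest that 4 against 4 can give, and limma adjusted p = 0.9998). The KO sample was lower in 4 of 4 same-numbered pairs, within slide 1 the difference was −0.82 and within slide 2 it was −0.86, and over the left-out samples it ran from −1.05 to −0.59. Lower in 4 of 4 pairs were also 9.58% of all genes. In the authors' deposited table, whose values follow quantile-normalised median signal, the difference was −0.47.

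Ccl20, the ligand of Ccr6, measured −4.66, −3.44, −4.80 and −2.98 across WT 1 to 4, and −4.04, −0.94, −4.85 and −3.04 across KO 1 to 4. KO sample 2 stood far above the rest, and without it the difference of 0.75 was −0.01. Ccl24, an eotaxin that draws eosinophils and a gene of alternatively activated macrophages, measured 0.55, 1.18, 2.25 and 0.56 across WT 1 to 4, and 1.74, 1.89, 1.57 and 0.97 across KO 1 to 4, a difference of 0.41 ± 0.41 (SE). It was 0.95 within slide 1 and −0.13 within slide 2, and its second probe gave 0.54. Ccl19, a Ccr7 ligand, differed by −0.07 by the probe that stands for it and by 0.10 by its other probe. Ccl11, another eotaxin, lay at −3.83 and −3.83 in the samples numbered 3 and at −0.78 and −1.14 in those numbered 4, whereas Ccl25, a thymus and gut ligand, kept within 2.17 to 2.89.

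Ccl17 and Ccl22, the Ccr4 ligands made by dendritic cells and alternatively activated macrophages, were chosen for description after their values were seen. Ccl17 measured 0.83, 2.19, 0.21 and −2.61 across WT 1 to 4, and 1.72, 1.25, 0.06 and 0.45 across KO 1 to 4. WT sample 4 stood far below the rest, and the difference of 0.72 ± 0.95 (SE) was −0.20 without it and 1.39 without WT sample 2. Ccl22 measured −1.82, −0.44, −4.82 and −4.79 across WT 1 to 4, and −0.24, −1.38, −4.05 and −2.61 across KO 1 to 4, a difference of 0.90 ± 1.21 (SE). All samples numbered 1 and 2 lay above all those numbered 3 and 4, and the difference was 0.28 without WT sample 3, 1.74 without WT sample 2 and 0.25 with normexp background correction.

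**Figure D2:**
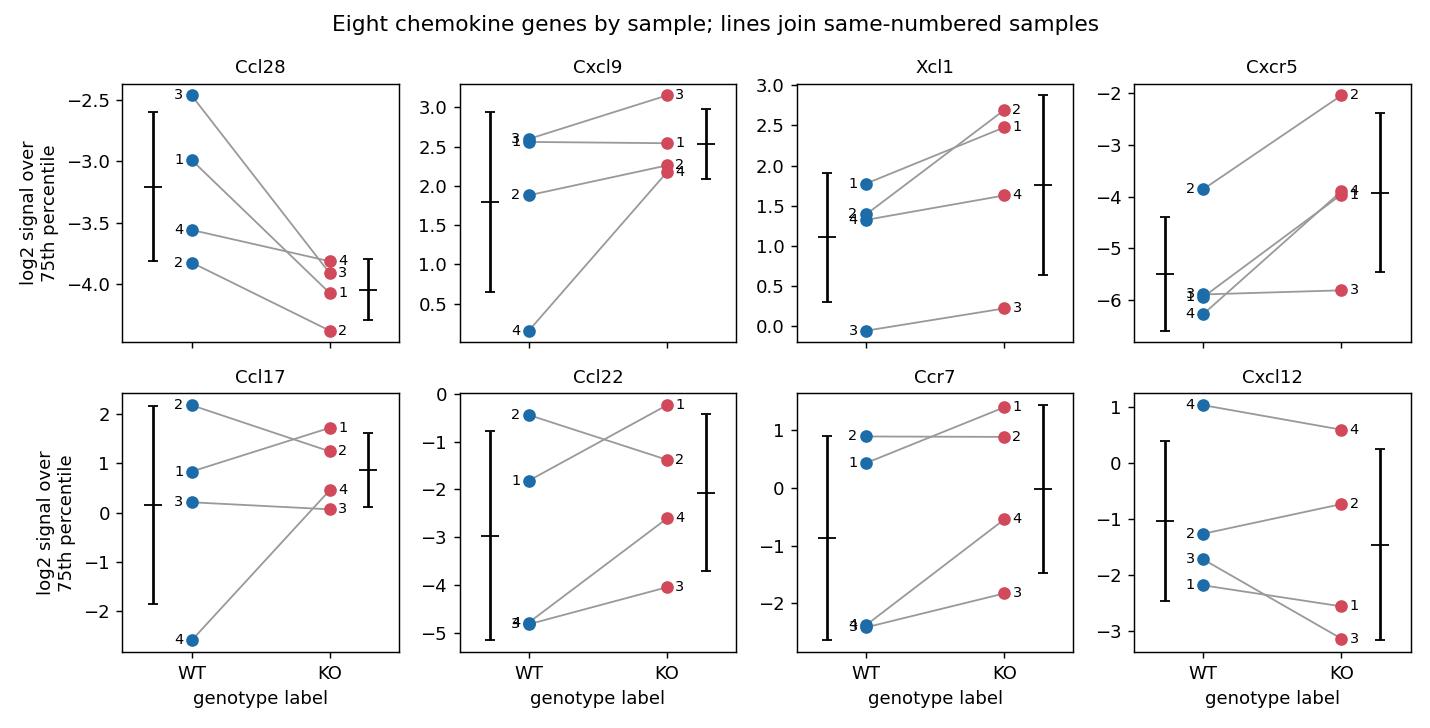
Level of 8 members in each sample (y axis, log2 signal over the array's 75th percentile; x axis, genotype label), with lines joining samples of one number and, at the sides, the mean and SD of the 4 samples. Lines run downward in 4 of 4 pairs for Ccl28, as for 9.58% of all genes, and upward in 4 of 4 for Xcl1 and Cxcr5, as for 7.51%. Cxcr5 was tested only through its KO arrays. In each of the 8 but Ccl28, replicate number took a larger share of the sum of squares over the samples than genotype did. For Xcl1 these shares were 82.0% and 12.8%, and for Cxcr5 58.8% and 31.3%. From the degrees of freedom, 42.9% and 14.3% would come.

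Of the neutrophil-attracting CXC ligands, 5 of 6 were tested, 3 higher and 2 lower in KO with a median difference of 0.17, and none passed. Cxcl2, a Cxcr2 ligand with the NF-kB letters shown above, measured 7.42, 7.84, 6.70 and 6.97 across WT 1 to 4, and 7.78, 6.97, 6.65 and 6.70 across KO 1 to 4, a difference of −0.20 ± 0.34 (SE). Its highest samples were WT sample 2 and KO sample 1. Cxcl1 and Cxcl3, with the same letters upstream, ranged over the 8 samples from 3.47 to 4.86 and from −0.38 to 2.57. The lowest Cxcl1 and Cxcl3 values were both in WT sample 3. Ppbp, a platelet and myeloid ligand of Cxcr2, measured 1.73, 1.92, 1.75 and 0.15 across WT 1 to 4, and 2.30, 1.48, 1.57 and 1.49 across KO 1 to 4. WT sample 4 was the lowest and KO sample 1 the highest, and the difference of 0.32 was −0.09 without WT sample 4. Among the platelet markers 2 of 6 tested were higher and 4 lower in KO, with a summed signal of 4.84 to 8.35 under the WT label and 2.54 to 7.56 under the KO label, in multiples of the 75th percentile, and their part in the Ppbp values was not tested. Cxcl5, an epithelial Cxcr2 ligand, was well above background on 1 array labelled WT and 3 labelled KO, at −3.04 in WT sample 4 and −4.97, −4.34 and −4.11 in KO samples 1, 2 and 4. It reached the filter of 4 arrays only through the KO label. Its difference of 1.39 turned to −0.64 with normexp background correction.

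Both Cxcr3 ligands with a probe, which interferon gamma induces in macrophages and which attract activated T cells and NK cells, had higher means in KO, and neither passed. Cxcl9 measured 2.56, 1.88, 2.60 and 0.16 across WT 1 to 4, and 2.54, 2.26, 3.15 and 2.17 across KO 1 to 4. Without WT sample 4, the lowest of the 8, the difference of 0.73 ± 0.55 (SE) was 0.19. Cxcl10, whose promoter holds the interferon response letters shown above, measured 3.59, 3.97, 3.17 and 2.69 across WT 1 to 4, and 3.84, 3.27, 3.40 and 3.26 across KO 1 to 4. Its difference was 0.08 ± 0.30 (SE), with −0.23 within slide 1 and 0.40 within slide 2, and WT sample 4 was again the lowest of the 8.

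The remaining 7 ligands, of the CXC, CX3C and XC classes, had 2 higher and 5 lower, with a median difference of −0.032. Xcl1, a ligand that NK and T cells secrete toward Xcr1-bearing dendritic cells, measured 1.78, 1.39, −0.05 and 1.32 across WT 1 to 4, and 2.47, 2.69, 0.22 and 1.63 across KO 1 to 4. The KO sample was higher in 4 of 4 pairs, as it was for 7.51% of all genes, and the groups overlapped widely. The difference was 0.64 ± 0.62 (SE), or 0.26 without WT sample 3. Of the 10 NK cell markers 9 were also higher in KO, beside 48.85% of all genes. Their summed signal was 7.50 to 20.3 under the WT label and 10 to 38.6 under the KO label, and all 10 were well above background on 6 or more arrays. Of 13 T cell markers tested, 10 were higher and 3 lower, with a summed signal of 7.40 to 17.2 under the WT label and 8.84 to 22.9 under the KO label. Their part in the Xcl1 and Ccl5 values was not tested.

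Cxcl12, the stromal ligand of Cxcr4, measured −2.19, −1.26, −1.72 and 1.04 across WT 1 to 4, and −2.56, −0.73, −3.14 and 0.60 across KO 1 to 4. Both samples numbered 4 stood highest and KO samples 1 and 3 lowest. The difference of −0.43 was 0.26 without WT sample 4, and a second probe, for another transcript accession of the gene, gave 0.75. Cxcl13, the B cell attractant that binds Cxcr5, measured −2.87, −0.00057, 1.07 and −3.11 across WT 1 to 4, and −5.62, −2.14, 0.31 and −0.59 across KO 1 to 4 and was not well above background in KO sample 1. Its difference of −0.78 was −2.45 within slide 1 and 0.88 within slide 2. Cxcl16, the membrane-bound ligand of Cxcr6, kept within 4.53 to 5.30 and Pf4, a platelet chemokine that macrophages also express, within 3.39 to 4.49.

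Among the 13 receptors, 9 had a higher and 4 a lower mean in KO, with a median difference of 0.15, and none passed. Cxcr5, the B cell follicle receptor, was dim and measured −5.94, −3.86, −5.89 and −6.27 across WT 1 to 4, and −3.96, −2.05, −5.81 and −3.90 across KO 1 to 4. It was well above background on 1 array labelled WT and 3 labelled KO, and so reached the filter of 4 arrays only through the KO label. The KO sample was higher in 4 of 4 pairs, by 0.08 in the pair numbered 3 and by 1.81 to 2.37 in the others. The difference was 1.56 with a standard error of 0.84 (two-sided exact permutation p = 0.143), and −0.16 with normexp background correction. B cell markers had 5 of 7 tested members higher and 2 lower, with differences from −0.50 for Pax5 to 1.66 for Ms4a1 and a median of 0.30, and a summed signal of 1.12 to 2.93 under the WT label and 1.51 to 4.24 under the KO label, and their part was not tested. Ccr7, which guides dendritic cells and T cells to lymph nodes, measured 0.43, 0.89, −2.42 and −2.38 across WT 1 to 4, and 1.39, 0.88, −1.83 and −0.55 across KO 1 to 4. All 4 samples numbered 1 and 2 lay above all 4 numbered 3 and 4, as for Ccl22, and the difference of 0.84 ± 1.01 (SE) was smaller than that spread. Xcr1, the receptor of cross-presenting dendritic cells, measured −2.02, −2.51, −2.82 and −2.96 across WT 1 to 4, and −2.39, −2.90, −3.34 and −2.96 across KO 1 to 4, a difference of −0.32 ± 0.28 (SE), and 0.55 by its other probe.

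In the monocyte and macrophage receptor genes Ccr2, Cx3cr1 and Ccr1, replicate number took 98.5%, 96.9% and 91.7% of the sum of squares over the 8 samples. The mean over all genes was 62.4%. Genotype took 0.709%, 0.838% and 5.93%, against 11.2% over all genes. Ccr2, which marks recruited monocytes, measured 3.85, 3.45, 3.41 and 2.10 across WT 1 to 4, and 3.74, 3.19, 3.30 and 2.16 across KO 1 to 4, with both samples numbered 4 lowest, and differed by −0.10, or 0.08 by its other probe. Cx3cr1, the fractalkine receptor of resident macrophages and monocytes, measured 2.81, 2.36, 3.49 and 1.80 across WT 1 to 4, and 2.78, 2.15, 3.18 and 1.92 across KO 1 to 4 and differed by −0.10, or 0.01 by its other probe. Ccr1, a receptor of Ccl3, Ccl5, Ccl6 and Ccl9, was higher in the KO sample of each of the 4 pairs, by 0.02 to 0.49, with a range of −0.18 to 1.60 over the 8 samples. Cxcr4, the Cxcl12 receptor, had the smallest range of the members by the probes that stand for them, from 5.69 to 6.16, while its other probe ran from 1.15 to 1.96. Ccr3, the eosinophil receptor, stood at 2.16 and 2.37 in WT and KO sample 1 and between −2.25 and −0.28 in the other 6. Its difference was 0.16, or −0.52 by its other probe. Cxcr2 ranged from −4.23 to −0.37, Ccr9 from −4.97 to −0.85, Cxcr3 from −2.98 to 0.01, Ccr6 from −3.65 to −2.11 and Cxcr6 from −2.88 to −1.50.

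**Figure D3:**
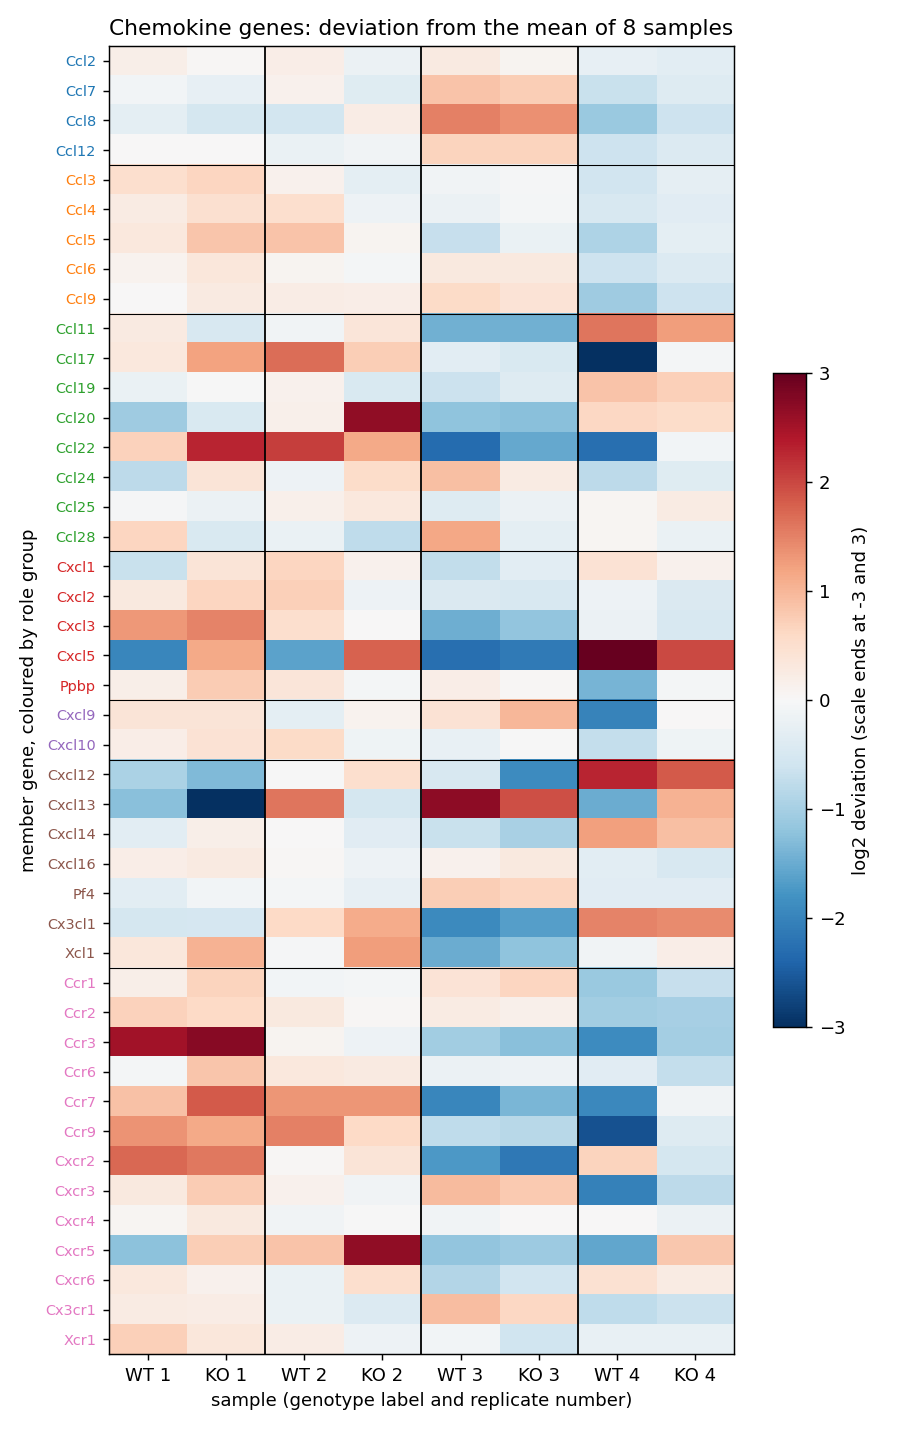
Deviation of each of the 44 members tested (rows, coloured and ordered by role group) from its mean over the 8 samples (columns, same-numbered WT and KO samples side by side), in log2 units with the colour scale ending at −3 and 3. Colours are alike within most pairs of one number and differ between numbers, for example Ccr3 high in both samples numbered 1, Ccl8 high in both numbered 3 and Ccl11, Cxcl12 and Cx3cl1 high in both numbered 4.

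Most of the variation of the chemokine genes lay between replicate numbers, not between genotypes. The labels do not state what samples of one number share. Averaged over the 44 members, the number took 79.8% of a gene's sum of squares over the 8 samples, against 62.4% over all 20832 genes measured on every array and 42.9% from its degrees of freedom. The genotype took 6.28%, against 11.2% over all genes and 14.3% from its degrees of freedom. The slide, which is part of the number, took 28.5% against 16.6%. In 42 of 44 members (95.5%) the share of the number was over 3 times that of the genotype, beside 75.5% of all genes. The exceptions were Ccl28, the member whose genotype share (52.0%) exceeded its number share (32.1%), and Cxcr5, at 31.3% for the genotype and 58.8% for the number. Cx3cl1, Ccr2 and Ccl12 lay at the other end, with number shares of 98.7%, 98.5% and 98.5%. The median gap between the samples of a pair was 0.34 for the members and 0.32 for all genes, so the larger share came with a wider spread between numbers, 1.38 from the lowest to the highest pair mean against 0.86. These are descriptions with no test.

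**Figure D4:**
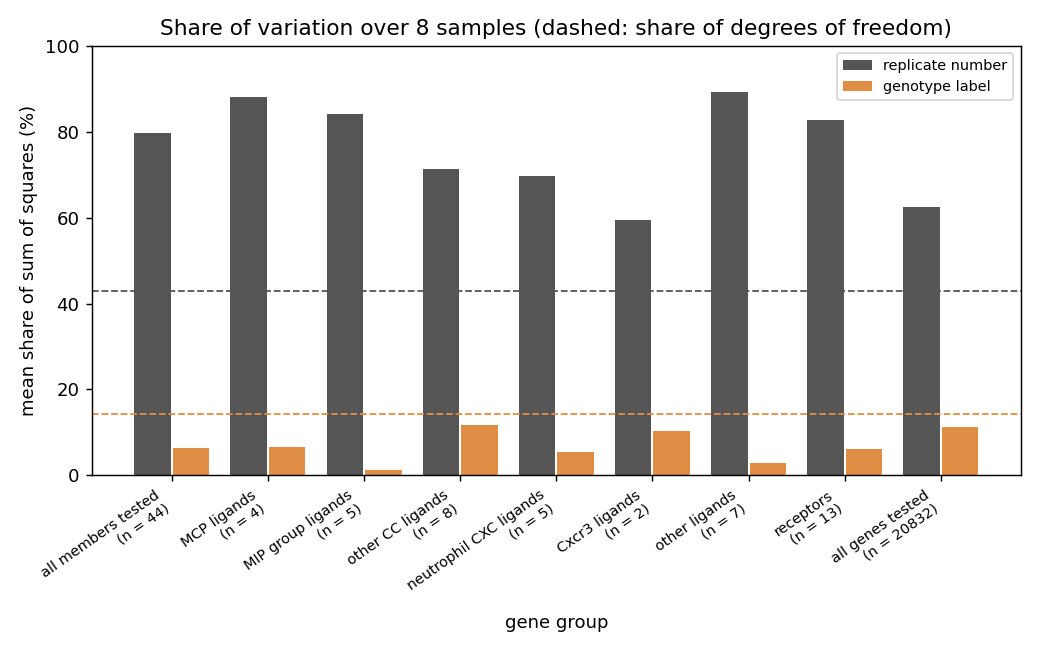
Mean share of the sum of squares over 8 samples (y axis, percent, from 0) taken by replicate number (grey) and genotype label (orange) in each role group and in all genes, with dashed lines at each term's share of the degrees of freedom. The genotype bar of the 44 members (6.28%) lies below that of all genes (11.2%), and their number bar (79.8%) lies above it (62.4%).

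The numbers sorted the members into sets, several of which held both CC and CXC ligands, given here after their values were seen and without a test. The monocyte chemoattractant proteins Ccl2, Ccl7, Ccl8 and Ccl12 all fell in the same set. Of the 44 members, 17 had their highest pair mean in number 1, 6 in number 2, 14 in number 3 and 7 in number 4, while 24 had their lowest in number 4 and 18 in number 3. The same counts were not taken over all genes, so they cannot be read as a trait of chemokine genes. Highest in number 3 and lowest in number 4 were 12 members, Ccl2, Ccl6, Ccl7, Ccl8, Ccl9, Ccl12, Ccl24, Cxcl9, Pf4, Ccr1, Cxcr3 and Cx3cr1, with pair means of 3.78, 4.03, 5.64 and 3.32 for Ccl8 in numbers 1 to 4. The mean level of the macrophage markers was likewise highest in number 3 and lowest in number 4. It was 4.40, 4.35, 4.91 and 3.65 across WT 1 to 4, and 4.49, 4.16, 4.84 and 3.68 across KO 1 to 4. Single markers differed, with Fcgr1 and Cd14 higher in number 1 than in number 3 under both labels. The summed signal of the macrophage markers ran from 407 to 728 under the WT label and 400 to 726 under the KO label. Highest in number 4 and lowest in number 3 were 7 members, Ccl11, Ccl19, Cxcl5, Cxcl12, Cxcl14, Cxcr6 and Cx3cl1. Cx3cl1, the membrane-bound ligand of Cx3cr1, had pair means of 1.34, 2.71, 0.07 and 3.31. Fibroblast markers had mean levels of 0.37, 0.98, −0.50 and 1.39 across WT 1 to 4, and 0.84, 0.56, −0.40 and 1.82 across KO 1 to 4, and tumour epithelial markers of 0.09, 1.56, −0.77 and 1.83 across WT 1 to 4, and 0.24, 1.40, −0.88 and 2.17 across KO 1 to 4. Their summed signals were 11.8 to 51.3 under the WT label and 12.6 to 63.0 under the KO label for fibroblasts and 12.3 to 103 under the WT label and 12.8 to 115 under the KO label for tumour epithelium, with 8 of 10 and 5 of 10 markers higher in KO. Here too single markers differed. The fibroblast marker Fap and the tumour epithelial marker Esr1 were higher in number 3 than in number 4 under both labels.

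In 16 members both pair means on slide 1, numbers 1 and 2, lay above both on slide 2. These were Ccl4, Ccl5, Ccl17, Ccl22, Cxcl2, Cxcl3, Ppbp, Cxcl10, Xcl1, Ccr3, Ccr6, Ccr7, Ccr9, Cxcr2, Cxcr5 and Xcr1, and the pair means of Ccr7 were 0.91, 0.88, −2.12 and −1.46. The reverse order was not counted, and neither order was counted over all genes, so the pattern cannot be called particular to chemokine genes. The 8 dendritic cell markers with a probe had mean levels of 0.48, 0.73, −0.37 and −0.62 across WT 1 to 4, and 0.50, −0.32 and −0.32 across KO 2 to 4, with KO sample 1 the highest of the 8. Of them 6 were higher and 2 lower in KO, and their summed signal was 47.1 to 79.4 under the WT label and 55.5 to 83.5 under the KO label. Cd83, at 5.27 to 5.88 under the WT label and 5.47 to 5.80 under the KO label, gave most of that sum. The sum therefore speaks mainly for this gene and not for the list. A set of 11 members was highest in number 1 and lowest in number 4. It held Ccl3, Ccl4, Ccl5, Ppbp, Cxcl10, Cxcl16, Ccr2, Ccr3, Ccr6, Ccr9 and Cxcr4. A set of 5, Ccl20, Ccl22, Ccl25, Cxcl1 and Cxcr5, was highest in number 2 and lowest in number 3. Highest in number 1 and lowest in number 3 were 6 members, Cxcl2, Cxcl3, Xcl1, Ccr7, Cxcr2 and Xcr1, with pair means of −0.44, −1.88, −4.02 and −2.02 for Cxcr2. Neutrophil markers had mean levels of 1.29, −0.55, −1.40 and −0.54 across WT 1 to 4, and 1.40, −1.01, −1.92 and −0.34 across KO 1 to 4, with 3 of 9 higher in KO and a summed signal of 8.58 to 64.6 under the WT label and 7.53 to 63.0 under the KO label. Eosinophil and mast cell markers, beside which Ccr3 stood highest in number 1, had a summed signal of 0.717 to 10.1 under the WT label and 0.613 to 7.67 under the KO label, with 4 of 5 tested members higher and Ms4a2, of the mast cell IgE receptor, not well above background on any array. Endothelial markers had all 9 tested members lower in KO, where 48.85% of all genes had a higher mean. Their summed signal was 2.21 to 9.77 under the WT label and 2.23 to 4.95 under the KO label, and Tek, an endothelial receptor gene, was well above background on 0 of 8 arrays. The part of these cell types in the chemokine values was not tested. In such bulk RNA, fewer cells of a type and less RNA per cell cannot be told apart.

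**Figure D5:**
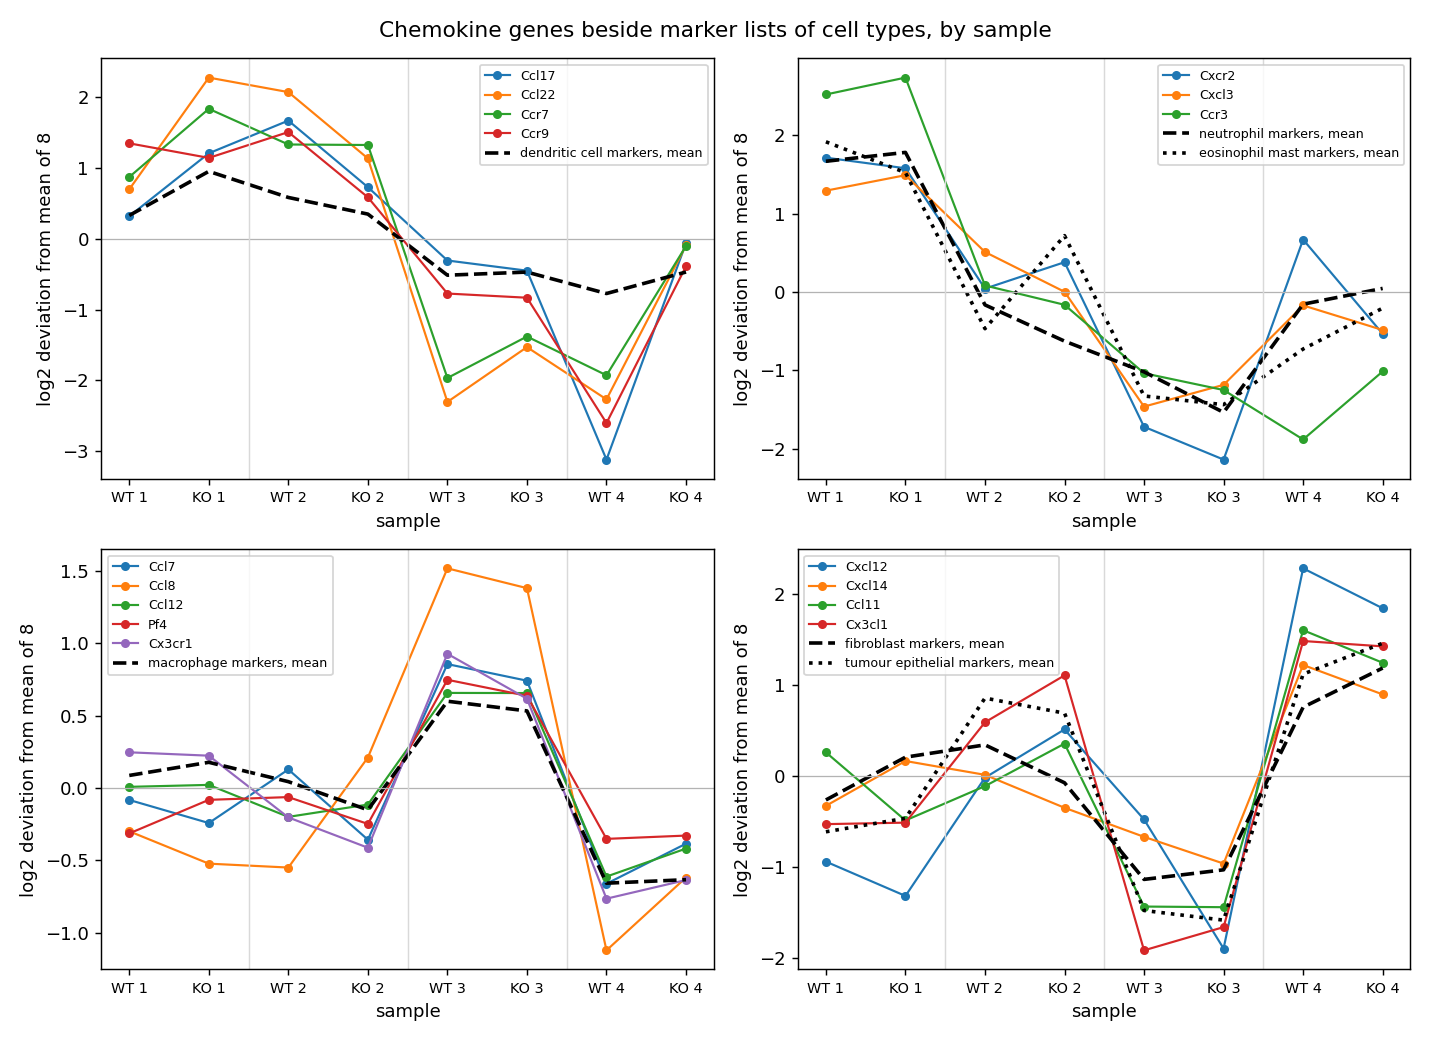
Deviation from the mean of the 8 samples (y axis, log2 units) by sample (x axis, in pairs of one number), with coloured lines for single members and black lines for the mean of a marker list. The members drawn are examples picked after their values were seen, and other members share their patterns. Ccl7, Ccl8, Ccl12, Pf4 and Cx3cr1 are highest in the samples numbered 3, as is the mean of the macrophage markers. Ccl11, Cxcl12, Cxcl14 and Cx3cl1 are highest in those numbered 4, as are the means of the fibroblast and tumour epithelial markers. Not every marker follows the mean of its list, and Fap and Esr1 are lower in number 4 than in number 3.

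The other genes of the pathway, atypical receptors and the signalling chain behind the chemokine receptors, were read from a separate list of 27 genes. Of these, 24 were tested, 11 higher and 13 lower in KO with a median difference of −0.023, and 0 passed in either direction (limma adjusted p = 0.9998 for each, and 0 at an unadjusted p under 0.05). Ackr3 and Ackr4, which take up chemokines without signalling through G proteins, were too dim to be tested, and Arrb2 had no matched probe. The smallest unadjusted p values belonged to Grk2, a kinase that desensitises the receptors, with a difference of 0.34 ± 0.24 (SE), Prex1, which activates Rac, with 0.34 ± 0.25, the phospholipase gene Plcb3 with 0.25 ± 0.19 and the G protein subunit gene Gnb1 with −0.17 ± 0.16. Without the block, their intervals were narrower than those of the members, with a median distance to the interval's end of 0.64, and excluded a 2-fold change for 18 of the 24.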

How the data were processed

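Total RNA of the sorted cells was labelled with Cy3 and hybridised to Agilent 1-colour arrays, per the labels. The deposited scanner files hold intensity values from Agilent Feature Extraction, version 10.7.1.1 per the file headers and 10.5 per the submitters' processing notes, with background already subtracted from the processed signal. A further deposited table holds the authors' intensity values for 40928 probes. Its column medians were 92 to 94. Over 22256 probes, quantile-normalised median signal gave nearly the same array-to-array differences (r = 0.9995), from which its scale is inferred.

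Control and outlier spots (90 to 114 an array) were left out, spots of a probe averaged, and log2 of the array's 75th percentile subtracted. Of 41174 probes, 25089 had a symbol through RefSeq accessions (GRCm38.p6). The brightest probe stood for a gene, which was tested if well above background on at least 4 arrays. The comparison of WT and KO used limma (version 3.58.1, R 4.3.3) without a replicate block, and two-sided p-values were adjusted by Benjamini and Hochberg's method over all 20870 genes. The fit was tested on simulated data with 4 arrays per genotype and each gene's spread within genotypes. It called 10% of changes when they were 2-fold, 58% when 4-fold and 72% when 16-fold, and made 4 false calls. The simulated arrays were independent, whereas same-numbered samples of the data deviated together, so these shares may not hold for the data.

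Same-numbered WT and KO samples deviated together (correlations of 0.296, 0.137, 0.702 and 0.513 over genes), so the numbers were taken to pair the samples; the labels do not say what they share, and the pairs WT 2 with KO 4 and WT 4 with KO 2 also correlated, at 0.151 and 0.138. Alternatives were background correction (normexp, offset 50), normalization, filters, probe choice, the deposited table, slide and replicate blocks, single slides, variance settings and leaving out each sample.

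The members and lists were chosen with earlier results of these data known. Values per sample are given for the 3 members of smallest unadjusted p in each role group, and other members by ranges, or by name where probes disagreed, a probe was below background or 1 sample decided the value. Ccl17 and Ccl22 were added after their values were seen.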

Additional observations from a re-analysis of the deposited data

Results flagged for a closer look

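In 5 of 88 groups of 4 samples of a member, 1 sample stood apart from the other 3 by Dixon's test at the 95% level. Chance gives about 1 in 20 groups. Ccl7 was 4.25 in KO sample 3 and 3.12 to 3.26 in the other samples labelled KO. Cxcl5 was −3.04 in WT sample 4 and −8.37 to −7.72 in the other samples labelled WT, which were not well above background. Ppbp was 0.15 in WT sample 4, against 1.73 to 1.92, and 2.30 in KO sample 1, against 1.48 to 1.57. Cxcr5 was −3.86 in WT sample 2 and −6.27 to −5.89 in the other samples labelled WT, which were not well above background.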

How the results depend on the processing

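In each alternative and each left-out sample, 0 of the members tested were called with limma, including the fit with the replicate number as a block, whose smallest adjusted p among members was 0.638. With the numbers as pairs, no call changed. The median difference of the members was 0.03 to 0.15 under the alternatives that kept all samples or 1 slide, and −0.11 to 0.16 over the left-out samples. Directions of single members were less stable. With normexp background correction the difference was −0.18 for Ccl20, −0.64 for Cxcl5, −0.16 for Cxcr5 and 0.11 for Cx3cr1, while the median of all genes was −0.13. Within slide 1 it was −0.12 for Ccl5, −0.23 for Cxcl10, 0.077 for Cxcl12, −0.015 for Ccr3 and −0.025 for Ccl17. Within slide 2 it was −0.053 for Ccl20, −0.13 for Ccl24, 0.081 for Ccl7, 0.88 for Cxcl13, −0.47 for Cxcl5 and 0.052 for Ccl19. With array weights it was −0.0013 for Ccl6, 0.045 for Ccl19 and −0.26 for Ccr3. With the mean of a gene's probes it was 0.16 for Cxcl12, 0.11 for Xcr1, 0.014 for Ccl19 and −0.18 for Ccr3. The cause was not tested. Over the left-out samples, 33 of the 44 members tested took differences of both signs, and among the 26 named members these were Ccl17 (−0.20 to 1.39), Ccl19 (−0.32 to 0.20), Ccl20 (−0.0079 to 1.29), Ccl5 (−0.051 to 0.54), Ccl6 (−0.12 to 0.22), Ccl7 (−0.39 to 0.14), Ccl8 (−0.20 to 0.77), Ccl9 (−0.20 to 0.36), Ccr2 (−0.47 to 0.21), Ccr3 (−0.73 to 1.02), Cx3cr1 (−0.38 to 0.19), Cxcl10 (−0.14 to 0.29), Cxcl12 (−1.11 to 0.26), Cxcl13 (−1.56 to 0.42) and Ppbp (−0.087 to 0.50). Leaving out WT sample 4 turned 10 of 26 named members. Precision was limited by 4 samples per genotype, and 3 members were well above background on fewer than 8 arrays. On simulated data the fit without a block called 10% of 2-fold changes. Those data held no shared deviation of same-numbered samples, so how often the fit would miss such changes here was not tested.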
